A study of Mus musculus with 24 samples.

Results

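Guanylate-binding proteins (GBPs) were examined as 10 genes, Gbp2 to Gbp11, among the 54532 genes of the expression table. They were matched by symbol. GBPs are large GTPases of the dynamin superfamily that interferons induce in macrophages and dendritic cells. They assemble on pathogen vacuoles, on bacteria and on released bacterial lipid, and they promote the activation of inflammasomes. Some members carry a C-terminal cysteine motif to which a prenyl lipid is attached, and this lipid anchors them in membranes.

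The 24 libraries covered macrophages (BMDMs, cultured in L929 supernatant) and dendritic cells (BMDCs, cultured in GM-CSF with IL-4), both differentiated from bone marrow. The cells came from tamoxifen-induced Tmem173fl/fl mice (WT label) or Tmem173fl/fl mice with a tamoxifen-inducible Cre recombinase driven by the myeloid Lyz2 promoter (CRE label). Tmem173 encodes STING, and both genotypes carried the floxed allele and received tamoxifen. Cells were left without agonist (CT label, control) or received DMXAA, an agonist of mouse STING, so that 2 cell types, 2 genotype labels and 2 treatments gave 8 groups of 3 libraries. The dose was 40 µM in the series text, whereas the study's methods give µg/mL, so the concentration is uncertain. The study's methods give the age at tamoxifen as a range of weeks for its mice in general, and the number of mice behind each library is not given in the sources used here.

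The 4 members on the forward strand of chromosome 3 lay in the order Gbp5 (142493978 to 142522344), Gbp7 (142530342 to 142550149), Gbp3 (142560026 to 142573209) and Gbp2 (142620602 to 142638008), in GRCm38. The 6 others lay on the reverse strand of chromosome 5, namely Gbp8 (105014150 to 105139540), Gbp9 (105077630 to 105139539), Gbp4 (105115767 to 105139586), Gbp10 (105215699 to 105239533), Gbp6 (105270702 to 105293698) and Gbp11 (105323042 to 105346472). The annotation lists Gbp11 as a polymorphic pseudogene and the other 9 as protein coding.

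The last 30 coding bases were read from the reference transcripts because a prenylated protein ends in a motif with its cysteine at the fourth codon from the end. The last 4 codons are in capitals.
Gbp2: aacaaatcgtctgggaagTGCACTATACTC
Gbp5: cgtagacatcatcatgacTGTGTTATAAGC
Gbp3: gggctgaaattcctcggcTCACTAAGTAGT
Gbp7: acacagaattcagacaaaGTTAGAAAACTC
Gbp4: ttatcactccttaggaaaAAGGATAGACTG
Gbp9: ttaacacacaatccttcaCTTTTAAGGAAA
Gbp6: cattaccttgtccgttatCTAAAGCATTTA
Gbp8: ttcatttattttttctccCATTTCAATGAT
Gbp11: gacatgagggagaagattGAACATGACTAC
Of the 10 members, Gbp2 (codon TGC) and Gbp5 (codon TGT) had a cysteine codon at that place. Gbp10 ended in the same 30 bases as Gbp6.

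Sites for interferon-activated factors were then looked for in the RefSeq promoter windows of GRCm38.p6, which run from 250 bases before to 50 bases after the start of transcription. The 4 members on chromosome 3 were matched there. The core of the interferon-stimulated response element (GAAANNGAAA, both strands) is in capitals in the 30 bases shown for each, all on the forward strand.
Gbp5, chr3:142496759-142496788: acttgtgtagTTTCAATTTCagtttagaga
Gbp7, chr3:142530273-142530302: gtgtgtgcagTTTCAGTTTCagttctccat
Gbp3, chr3:142559992-142560021: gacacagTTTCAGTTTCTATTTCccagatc
Gbp2, chr3:142620594-142620623: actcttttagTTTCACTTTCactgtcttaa
The core began at base -165 of Gbp5, -53 of Gbp7, -45 and -39 of Gbp3 (overlapping matches) and -59 of Gbp2, counted from the RefSeq start. These starts differ from the gene starts listed above. The cores of Gbp5 and Gbp2 lay inside the gene spans listed, and those of Gbp7 and Gbp3 lay before them. The core was in 1131 of 32851 promoter windows (3.44%). The GAS motif (TTCNNNGAA) was in 8.30% of all windows and in those of Gbp5, from -245 and -52, and of Gbp7, from -106 and -87. A kB site, searched by name, was in 8.46% of all windows and in those of Gbp5, from -77, and of Gbp2, from 8. None of the GAS and kB matches overlapped another motif. These matches are descriptions of the sequence, not evidence of binding.

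Near-identical members limit what the counts can separate. The coding sequences of Gbp6 and Gbp10 were 98.4% identical, those of Gbp2 and Gbp5 70.3%. Of the 75-base windows in its transcripts, Gbp10 shared 67.2% with another Gbp gene and Gbp6 shared 42.7%. The share was 10.3% in Gbp11, 8.04% in Gbp8 and at most 3.61% in the other 6 members. In addition, 46.3% of the exonic bases of Gbp10 and 29.0% of those of Gbp6 overlapped Gm43302 on the same strand, a gene with at most 3 counts in any library. The levels of Gbp10 and Gbp6 are therefore uncertain.

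Total counts were 16470157 to 18912887 per BMDM library and 15657347 to 18080027 per BMDC library. Values are FPKM, reads scaled for gene length and library size, unless stated. The 4 BMDM libraries numbered 3 stood apart. The median gene of the macrophage marker list was at 752 to 1029 CPM (counts over the library's total) in BMDM libraries 1 and 2 of each group, 8 in all, and 0.582 to 1.39 in the 4 numbered 3. Fibroblast markers went the other way, from 1.52 to 37.4 CPM in the 8 to 435 to 793 in the 4. These 4 libraries are shown apart, and BMDM tests used numbers 1 and 2. In the BMDCs the dendritic cell list had 122 to 352 CPM, against 0.243 to 2.31 in those 8 BMDM libraries, and the macrophage list had 64.6 to 172.6. The defining gene Flt3 had at most 9.51 CPM in BMDCs. Tmem173 itself had 349 to 2204 counts per library and was never near a floor of 3 counts. In DMXAA-treated BMDMs it had 31.8 and 22.8 FPKM with the WT label and 9.12 and 10.1 with the CRE label, and in BMDCs the labels overlapped, so libraries are named by label.

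Under DMXAA the family as a whole was higher in both cell types and both genotype labels. The summed FPKM of the 10 members rose from 5.97 and 6.90 in WT-labelled BMDM controls to 3902 and 2747 under DMXAA, and from 7.79 and 7.58 to 911 and 922 in CRE-labelled BMDMs. In WT-labelled BMDCs the sum was 59.0, 59.3 and 46.2 without agonist and 980.0, 1564 and 1306 with it. CRE-labelled BMDCs had 48.0, 40.4 and 61.5 without agonist and 1351, 722 and 1537 with it. Hence BMDC controls were above every BMDM control, and the highest sums under DMXAA were in WT-labelled BMDMs. Gbp2 gave 56.9 to 64.1% of the sum under DMXAA in these libraries, and the 4 members on chromosome 3 gave 91.4 to 96.1%. Bulk libraries cannot tell fewer responding cells from less RNA per cell.

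**Figure D1:**
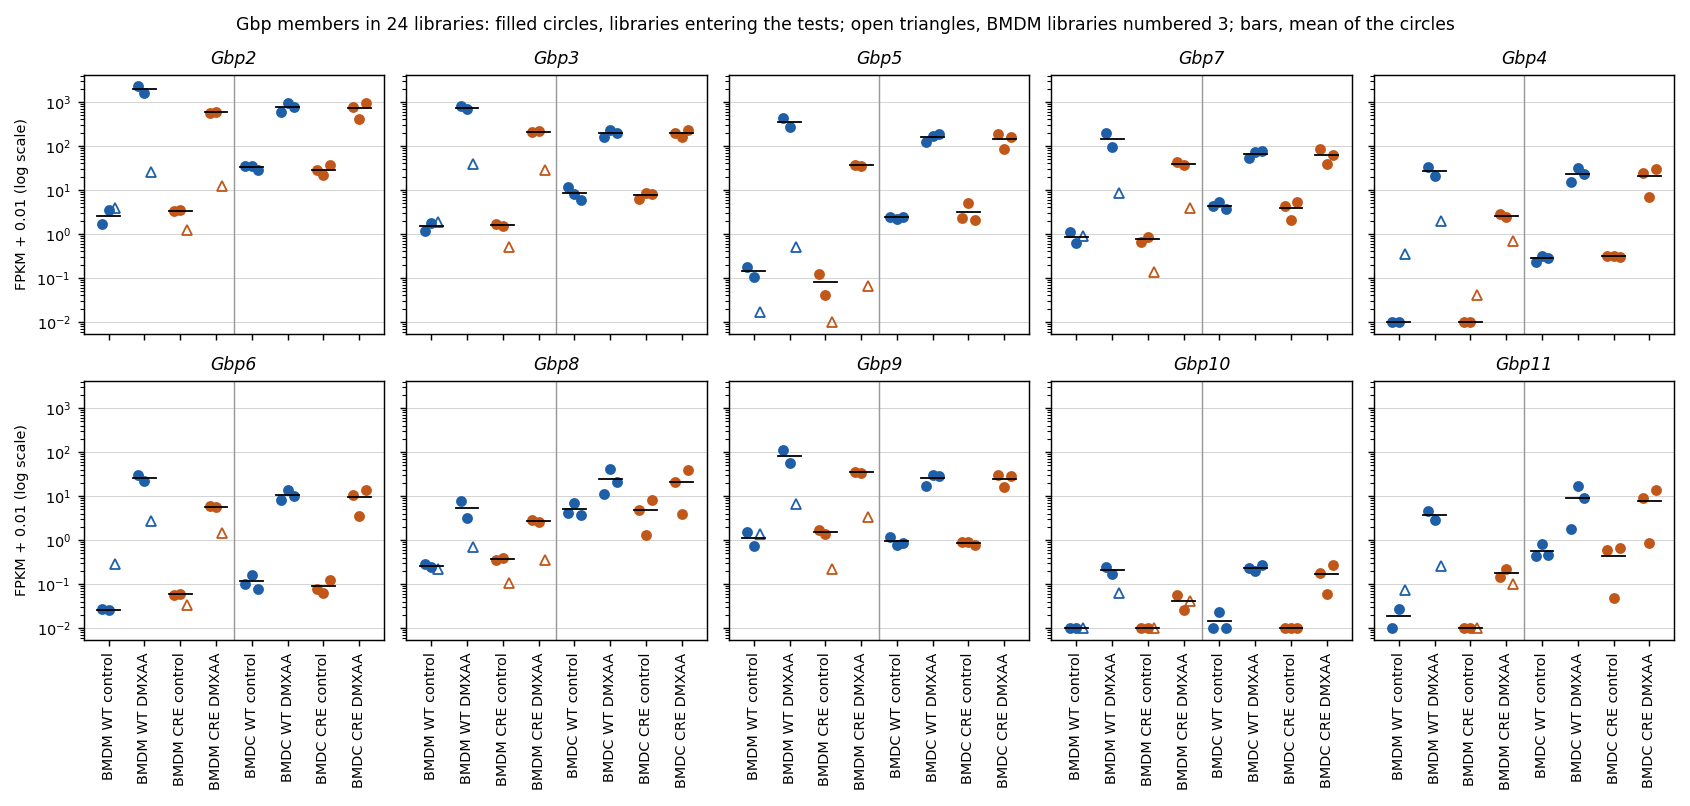
FPKM (plus 0.01, log axis) of each of the 10 members in each of the 24 libraries, by cell type, genotype label and treatment. Filled circles are the libraries that entered the tests, open triangles the BMDM libraries numbered 3, and bars the mean of the circles. Under DMXAA the CRE-labelled circles of BMDMs lie below the WT-labelled circles in every panel, and those of BMDCs overlap.

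Gbp2, a prenylated member that targets vacuoles and bacteria, had the highest level of the family. Its FPKM in WT-labelled BMDMs 1 and 2 was 1.69 and 3.43 without agonist and 2272 and 1587 with DMXAA. CRE-labelled BMDMs went from 3.27 and 3.40 to 573 and 591. In WT-labelled BMDCs 1 to 3 it went from 34.5, 34.8 and 28.6 to 590.2, 954 and 756, and in CRE-labelled BMDCs from 28.6, 22.2 and 36.4 to 777, 411 and 949.8. Control and DMXAA libraries did not overlap in any of these groups, and the genotype labels overlapped in BMDCs but not in DMXAA-treated BMDMs.

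Gbp5, the other member with the C-terminal cysteine codon and a promoter of inflammasome activation, was almost silent in BMDM controls. It had 0.170 and 0.0929 FPKM in the WT label and 0.110 and 0.0304 in the CRE label. DMXAA brought it to 442 and 265 and to 37.8 and 35.6, respectively, so that the CRE-labelled mean was 10.4% of the WT-labelled mean. BMDC controls already had 2.44, 2.16 and 2.48 (WT) and 2.33, 5.16 and 2.06 (CRE), and DMXAA-treated BMDCs had 124, 168 and 186 (WT) and 191, 83.6 and 164 (CRE).

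Gbp3 and Gbp7, the chromosome 3 members without that codon, followed the same order. Gbp3 had 1.18 and 1.79 FPKM in WT-labelled BMDM controls and 803 and 695 under DMXAA, against 1.70 and 1.47 and then 211 and 214 with the CRE label. In BMDCs it went from 11.7, 8.06 and 6.0 to 160.0, 235 and 195 (WT) and from 6.14, 8.45 and 7.95 to 199, 158 and 236 (CRE). Gbp7, a member tied to defence against intracellular pathogens, had 1.08 and 0.608 and then 198 and 94.1 in WT-labelled BMDMs, and 0.657 and 0.853 and then 42.1 and 37.4 in CRE-labelled ones. BMDCs had 4.20, 5.26 and 3.66 and then 52.0, 72.3 and 77.4 (WT), and 4.19, 2.09 and 5.35 and then 87.2, 38.6 and 63.9 (CRE). For both genes every BMDC control lay above every BMDM control.

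Gbp4 and Gbp6, on chromosome 5, were near zero in BMDMs before treatment. Gbp4 had 0 counts in all 4 BMDM controls numbered 1 and 2, and DMXAA gave 33.8 and 20.9 FPKM with the WT label and 2.77 and 2.36 with the CRE label. In BMDC controls it was 0.223 to 0.313 over the 6 libraries. DMXAA-treated BMDCs had 15.1, 31.5 and 23.0 (WT) and 24.9, 7.01 and 29.2 (CRE). Gbp6 had 0.0164 and 0.0159 in WT-labelled and 0.0470 and 0.0508 in CRE-labelled BMDM controls, and then 30.6 and 22.1 against 5.79 and 5.76 under DMXAA. Its BMDC controls were 0.0534 to 0.154 over the 6 libraries, and DMXAA brought 8.27, 13.8 and 9.95 (WT) and 10.8, 3.61 and 14.0 (CRE).

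Gbp9 was the exception among controls, with overlapping levels in both cell types. It had 1.55 and 0.715 FPKM in WT-labelled and 1.68 and 1.39 in CRE-labelled BMDM controls, and 0.765 to 1.18 over the 6 BMDC controls. DMXAA gave 109.6 and 57.4 (WT) and 36.0 and 33.0 (CRE) in BMDMs, and 17.4, 30.5 and 28.3 (WT) and 30.3, 15.8 and 28.3 (CRE) in BMDCs. Both WT-labelled BMDM libraries were above all 6 BMDC libraries under DMXAA.

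Gbp8 and Gbp11 reached their highest levels in BMDCs. Gbp8 had 0.270 and 0.234 and then 7.53 and 3.12 FPKM in WT-labelled BMDMs, and 0.341 and 0.381 and then 2.88 and 2.59 in CRE-labelled ones. In BMDCs it had 4.21, 6.92 and 3.80 and then 11.3, 41.3 and 21.3 (WT), and 4.90, 1.29 and 7.94 and then 21.3, 3.85 and 38.6 (CRE). Gbp11 had 0 and 0.0176 and then 4.63 and 2.85 in WT-labelled BMDMs, whereas CRE-labelled BMDMs had 0 and 0 and then 0.134 and 0.207. BMDCs had 0.421, 0.794 and 0.454 and then 1.74, 17.0 and 8.89 (WT), and 0.60, 0.0394 and 0.636 and then 9.0, 0.860 and 13.5 (CRE). The spread among BMDCs of one treatment was wide for these 2 genes, and Gbp8 overlapped between control and DMXAA in the CRE label.

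Gbp10 was barely counted. Over all 12 control libraries it had 1 count, in WT-labelled BMDC number 2. DMXAA gave 10 and 9 counts in WT-labelled and 3 and 1 in CRE-labelled BMDMs numbered 1 and 2, and 12, 11 and 15 (WT) and 9, 3 and 15 (CRE) in BMDCs. Its highest level was 0.257 FPKM, and it did not enter the tests.

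The low values of Gbp8 and Gbp11 in BMDCs lay in WT-labelled number 1 and CRE-labelled number 2. The same libraries were alone in having high levels of the neighbouring gene Gbp2b, which was singled out after its values had been seen. Gbp2b had 15.4 FPKM without agonist and 240.0 with DMXAA in WT-labelled number 1, and 9.72 and 195 in CRE-labelled number 2. Its FPKM was 0.114 to 1.31 in the other 8 BMDC libraries and at most 0.656 in BMDMs. Under DMXAA these libraries had the lowest level of their label for every member tested, so the low values were not particular to Gbp8 and Gbp11. They had 590.2 and 411 FPKM of Gbp2, 160.0 and 158 of Gbp3, 124 and 83.6 of Gbp5, and 17.4 and 15.8 of Gbp9. Without agonist WT-labelled number 1 had 4.21 FPKM of Gbp8, between the other WT-labelled values of 3.80 and 6.92. CRE-labelled number 2 also had more transcript of the 7 neutrophil markers, with 305.5 CPM summed over the list without agonist and 129.5 with DMXAA, against 7.13 to 20.5 in the other 10 BMDC libraries. Its macrophage list summed to 2168 and 2046 CPM, against 5961 to 8955 in those 10, which include WT-labelled number 1. The part of these differences in the results was not tested. Values for Gbp8 and Gbp11 without the 4 libraries are given beside their tests.

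**Figure D2:**
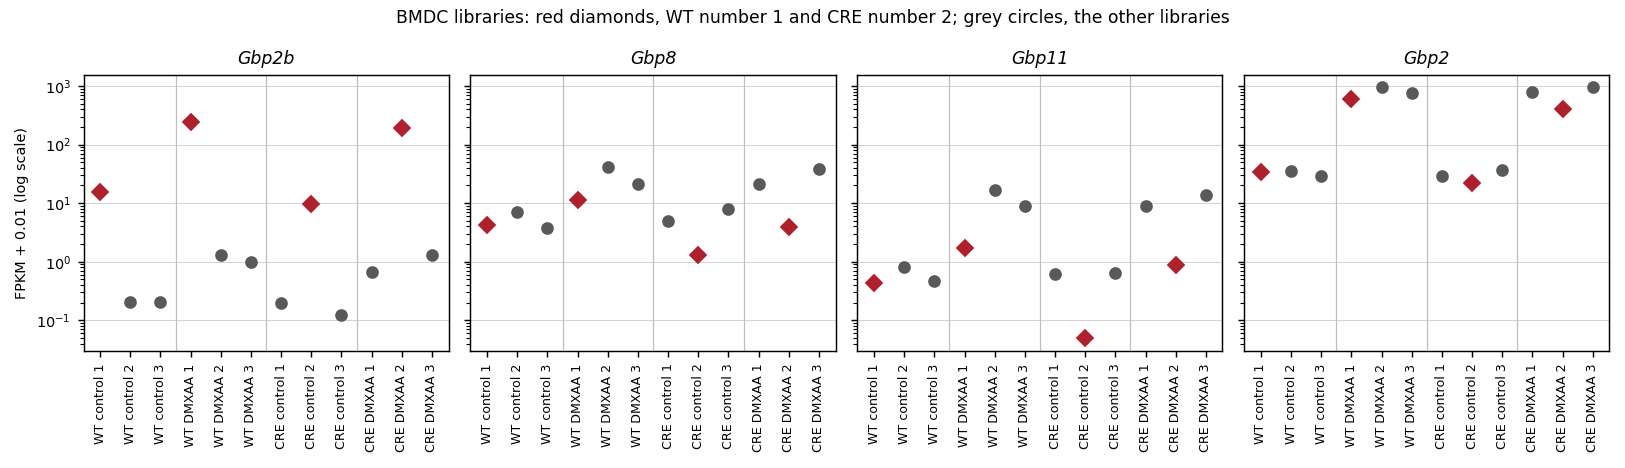
FPKM (plus 0.01, log axis) of Gbp2b, Gbp8, Gbp11 and Gbp2 in the 12 BMDC libraries. Red diamonds are WT-labelled number 1 and CRE-labelled number 2, and grey circles are the others. The diamonds lie above all circles of their label and treatment for Gbp2b and below them for Gbp11, and under DMXAA also for Gbp8 and Gbp2.

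The DMXAA response of BMDCs was tested with the quasi-likelihood test of edgeR over 12126 genes, with Benjamini-Hochberg adjustment and a threshold of 0.05. The labels do not say what a library number marks, so the p-values measure the spread between libraries. Among all genes, 17.0% were called higher under DMXAA with the WT label and 14.0% with the CRE label. Of the 10 members, 9 were tested in BMDCs, 5 of which passed the filter on low values in controls alone and 4 only through DMXAA-treated libraries. All 9 were called higher with the WT label and 8 of 9 with the CRE label. The 4, Gbp4, Gbp6, Gbp9 and Gbp11, were tested only because DMXAA-treated libraries were high, so their calls add no support. The other 5 were called with the WT label, and all of them but Gbp8 with the CRE label. In WT-labelled BMDCs the log2 fold change was 4.53 ± 0.35 (SE, n = 3 and 3, adjusted p = 4.39e-06) for Gbp2 and 6.05 ± 0.46 (adjusted p = 3.51e-06) for Gbp5. Gbp3 rose by 4.50 ± 0.29, Gbp7 by 3.92 ± 0.40 and Gbp9 by 4.74 ± 0.33. Gbp4 and Gbp6 rose most, by 6.39 ± 0.55 and 6.64 ± 0.57. In CRE-labelled BMDCs the same genes had 4.59 ± 0.35 (Gbp2), 5.5 ± 0.44 (Gbp5), 4.69 ± 0.29 (Gbp3), 4.0 ± 0.40 (Gbp7), 4.84 ± 0.33 (Gbp9), 6.05 ± 0.54 (Gbp4) and 6.87 ± 0.58 (Gbp6).

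Gbp8 and Gbp11 were the less certain members in BMDCs. Gbp8 had a log2 fold change of 2.29 ± 0.80 (edgeR adjusted p = 0.0485) with the WT label and 2.15 ± 0.80 (adjusted p = 0.0710, not called) with the CRE label. With the library number as a block within the genotype label these were 2.15 ± 0.23 (adjusted p = 6.27e-05) and 2.01 ± 0.23 (adjusted p = 0.000134). Gbp11 rose by 4.03 ± 1.08 (adjusted p = 0.0145) and 4.16 ± 1.10 (adjusted p = 0.0165). Leaving out 1 library at a time, Gbp8 was called in 1 of 6 fits with the WT label, the fit without DMXAA number 1, with adjusted p from 0.0398 to 0.171. Gbp11 was called in 3 of 6 (0.00802 to 0.0569), and lost its call without control number 1, DMXAA number 2 or control number 3. In CRE-labelled BMDCs Gbp8 was called only without DMXAA number 2 (0.0133, against up to 0.275 in the other 5 fits), and Gbp11 lost its call only without DMXAA number 3 (0.0556). Without the 4 libraries that had Gbp2b, Gbp8 was called in both labels, at 2.54 ± 0.46 (adjusted p = 0.00352) and 2.22 ± 0.46 (adjusted p = 0.00633), and so was Gbp11, at 4.36 ± 0.42 (adjusted p = 0.000151) and 4.17 ± 0.42 (adjusted p = 0.000186). These libraries were picked after their values had been seen. They held the lowest Gbp8 and Gbp11 of their label under DMXAA, so the calls without them are descriptions and add no support. For Gbp10 the ratio of counts was 49.2 (95% interval 8.32 to 1995, counting error only) from 1 count to 38 with the WT label, and at least 11.7-fold against a floor of 3 counts over the group with the CRE label.

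In BMDMs numbered 1 and 2, the same test over 11569 genes called 18.4% of genes higher with the WT label and 7.28% with the CRE label. All 9 members tested were called higher in both labels, 3 of which passed the filter in controls alone and 6 only through DMXAA-treated libraries. The 3 were Gbp2, Gbp3 and Gbp9. The 6 others were tested only because DMXAA-treated libraries were high, so their calls add no support. In WT-labelled BMDMs the log2 fold change was 9.44 ± 0.44 for Gbp2 (n = 2 and 2, edgeR adjusted p = 2.69e-05), 11.28 ± 0.54 for Gbp5, 8.86 ± 0.27 for Gbp3 and 7.32 ± 0.49 for Gbp7. Gbp6 rose by 10.45 ± 0.28, from 2 counts in each control, Gbp9 by 6.09 ± 0.48 and Gbp8 by 4.27 ± 0.46. In CRE-labelled BMDMs the values were 7.42 ± 0.41 (Gbp2), 9.02 ± 0.53 (Gbp5), 7.05 ± 0.25 (Gbp3), 5.69 ± 0.46 (Gbp7), 6.82 ± 0.24 (Gbp6), 4.47 ± 0.45 (Gbp9) and 2.89 ± 0.43 (Gbp8, adjusted p = 0.00977). Counts of Gbp4 against a floor of 3 over the controls were at least 2752-fold higher with the WT label and at least 242-fold higher with the CRE label. Gbp11 had a ratio of 406 (95% counting interval 72.3 to 16110) from 1 count to 252 with the WT label and was at least 5.76-fold higher with the CRE label. For Gbp10 the bounds were 10.2-fold and 1.54-fold.

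Leaving out 1 of the 4 CRE-labelled BMDM libraries at a time ended the calls of Gbp8 (adjusted p from 0.0576 to 0.114) and Gbp11 (from 0.128 to 0.165) in each of the 4 fits and left the other 7 called. In these fits the remaining library of a group was assumed to vary like the others. With the 4 BMDM libraries numbered 3 added, 0 members were called in BMDMs of either label. In those 4 libraries the members still were higher under DMXAA, as single values with no test. Gbp2 went from 3.92 to 25.4 FPKM with the WT label and from 1.2 to 12.3 with the CRE label. Gbp3, which had the highest level of the family there, went from 1.88 to 38.8 and from 0.506 to 28.3. Gbp5 was low in these 4 libraries, at 0.496 FPKM or lower, but went from 1 to 80 counts with the WT label and from 0 to 9 with the CRE label. The leukocyte list, with a median of at most 0.383 CPM, and Lyz2, with 0.895 to 9.58 CPM, were near 0 in the same libraries.

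Genotype labels were compared under DMXAA to ask how much of the GBP response was lower in cells from Cre-carrying mice. In BMDMs the CRE-labelled mean was below the WT-labelled mean for all 10 members, from 4.56% of it for Gbp11 to 51.4% for Gbp8. It was 30.2% for Gbp2, 28.4% for Gbp3, 27.2% for Gbp7, 9.40% for Gbp4, 22.0% for Gbp6 and 41.3% for Gbp9. Both CRE-labelled libraries were below both WT-labelled libraries for all 10 members, against 26.5% of the 21266 genes with counts in these libraries. The edgeR test called 7 of 9 members lower, against 9.99% of genes tested. Of the 7, Gbp11 passed the filter on low values only through the 2 WT-labelled DMXAA libraries. It was tested only because these were high, so its call adds no support. The log2 difference, CRE against WT, was -1.68 ± 0.31 for Gbp2 (adjusted p = 0.0140), -1.77 ± 0.20 for Gbp3 (0.00261), -3.22 ± 0.37 for Gbp5 (0.00283) and -1.83 ± 0.38 for Gbp7 (0.0198). For Gbp4 it was -3.36 ± 0.28 (adjusted p = 0.00389), for Gbp6 -2.14 ± 0.17 (0.00113) and for Gbp11 -4.38 ± 0.57 (0.00660). Gbp8, with -0.90 ± 0.39 (adjusted p = 0.158), and Gbp9, with -1.22 ± 0.38 (adjusted p = 0.0707), were not called.

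Gbp3 and Gbp6 were called lower whichever BMDM library of this comparison was left out. They were the only members called without CRE-labelled number 1 or without CRE-labelled number 2, where 2 of 9 were called. Without WT-labelled number 1 the count was 5 of 8, and without WT-labelled number 2 it was 8 of 8, with Gbp8 and Gbp9 added. Gbp11 fell below the filter when either WT-labelled library was left out. With the libraries numbered 3 the number of members called was 0. The spread between libraries was unequal, with a biological coefficient of variation of 34.75% over the 4 WT-labelled and 5.161% over the 4 CRE-labelled BMDM libraries. WT-labelled number 2 also had more fibroblast transcript, with 557 to 658 CPM summed over the list against 41.5 to 87.6 in the other 6 libraries, and the part of these differences in the result was not tested.

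Without agonist, no member was called between genotype labels in BMDMs, where 0.0432% of genes were called. At an unadjusted p under 0.05 there was 1 member, Gbp6, with a log2 difference of 1.49 ± 0.45 (unadjusted p = 0.0484, edgeR adjusted p = 0.714). The study's fold and p thresholds, applied to this same edgeR fit, therefore called it as well. The difference of the DMXAA responses, tested as an interaction, was lower in CRE-labelled BMDMs for 2 of 9 members, against 2.28% of genes. These were Gbp3, with -1.81 ± 0.29 (adjusted p = 0.0300), and Gbp6, with -3.63 ± 0.48 (adjusted p = 0.0205). The Gbp6 value rests on few counts, with 2 and 2 in the WT-labelled and 5 and 6 in the CRE-labelled controls. With limma-voom weights by label Gbp6 had -3.47 ± 1.39 (adjusted p = 0.236, not called) and Gbp3 -1.84 ± 0.37 (adjusted p = 0.0360). Gbp2 passed with these voom weights, at -2.08 ± 0.43 (adjusted p = 0.0371). In the edgeR fit without a block, Gbp2 had -2.02 ± 0.46 (adjusted p = 0.0661) and Gbp5 -2.25 ± 0.76 (adjusted p = 0.166), and neither was called. With the library number as a block within genotype label, Gbp2, Gbp5, Gbp7 and Gbp9 passed too, with edgeR adjusted p of 0.0404, 0.0444, 0.0106 and 0.00474, although only 2 BMDM numbers a label entered and their pairing is uncertain. No value could be estimated for Gbp4, with 0 counts in the controls of both labels. Over fits that left out 1 of the 8 libraries, 0 to 5 members were called, with 0 in each of the 4 fits without a CRE-labelled library. DESeq2 called 6 members.

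In BMDCs edgeR called no gene between the genotype labels, so the lack of calls is not particular to the family. The CRE-labelled mean under DMXAA was 71.5% (Gbp10) to 100.4% (Gbp3) of the WT-labelled mean, and the labels overlapped for all 10 members, while 1.39% of genes had every CRE-labelled library below every WT-labelled one. No member was called under DMXAA, without agonist or in the interaction, where the share of genes called by edgeR was 0.0%, 0.0% and 0.0%. At an unadjusted p under 0.05 there were 108, 99 and 60 of the 12126 genes and 0 members. These are smaller shares than the threshold of 0.05 itself, so the test may have missed differences. BMDC libraries were alike across labels (r up to 0.998), and the part of this likeness was not tested. DESeq2 called 0 members in all 3 comparisons. The log2 difference under DMXAA was -0.10 for Gbp2 (95% interval -0.76 to 0.56), 0.01 for Gbp3 (-0.54 to 0.56) and -0.12 for Gbp5 (-0.92 to 0.68). It was -0.24 for Gbp11, with an interval of -2.28 to 1.8, so its difference was bounded only loosely. Without the 4 libraries that had Gbp2b it was -0.21 ± 0.34 for Gbp11 and -0.07 ± 0.43 for Gbp8 (edgeR adjusted p = 1.0 for both). Whether the genotype difference itself was unequal between BMDMs and BMDCs was not tested.

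**Figure D3:**
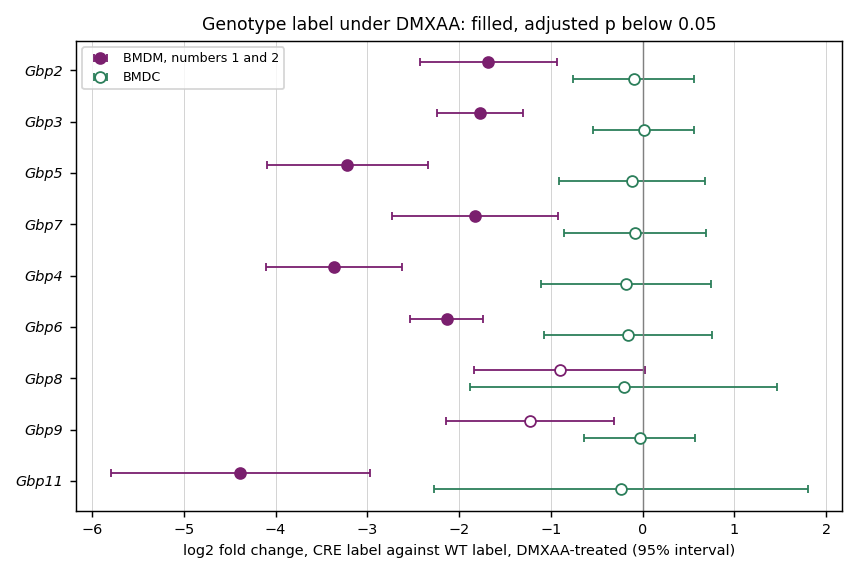
Log2 fold change of CRE-labelled against WT-labelled libraries under DMXAA for the 9 members tested, with 95% intervals from edgeR, in BMDMs numbered 1 and 2 (purple) and in BMDCs (green). Filled points had an adjusted p below 0.05. In BMDMs all 9 points lie below 0, from -0.90 for Gbp8 to -4.38 for Gbp11, whereas in BMDCs they lie from -0.24 to 0.01.

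The cell types were compared with the WT label over 12730 genes. Without agonist, 8 of 9 members tested were called higher in BMDCs than in BMDMs, against 14.6% of genes. The log2 difference was 3.66 ± 0.41 for Gbp2 (edgeR adjusted p = 7.95e-06), 2.51 ± 0.30 for Gbp3, 4.16 ± 0.55 for Gbp5 and 2.37 ± 0.46 for Gbp7 (adjusted p = 0.00102). Gbp8 had 4.29 ± 1.01 (adjusted p = 0.00449) and Gbp6 2.60 ± 0.88 (adjusted p = 0.0366). Gbp4 was at least 28.2-fold higher in BMDCs, against a floor of 3 counts over the BMDM controls. Gbp11 had a ratio of counts of 62.5 (95% counting interval 10.9 to 2495), from 1 count to 87. Gbp9 did not pass, with -0.28 ± 0.37 (adjusted p = 0.628). Leaving out 1 of the 5 libraries at a time ended the call of Gbp11 in all 5 fits (adjusted p from 0.0591 to 0.206) and that of Gbp6 in 4 (up to 0.153), all but the fit without BMDC number 3.

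Under DMXAA 6 members were called lower in BMDCs than in BMDMs, against 16.1% of genes. The log2 difference was -1.29 ± 0.34 for Gbp2 (edgeR adjusted p = 0.00828), -1.89 ± 0.26 for Gbp3 (6.38e-05), -1.68 ± 0.34 for Gbp9 (0.00153) and -1.26 ± 0.40 for Gbp6 (0.0234). Gbp5, with -1.11 ± 0.41 (0.0481), and Gbp7, with -1.08 ± 0.39 (0.0479), were close to the threshold. Gbp8 had 2.26 ± 0.83 (adjusted p = 0.0503), Gbp11 1.35 ± 1.0 (0.337) and Gbp4 -0.19 ± 0.45 (0.779). Gbp3 was called whichever library was left out, and it was the only member called without BMDM number 1. Without BMDC number 1 the members called were Gbp2, Gbp3, Gbp8 and Gbp9, without number 2 Gbp2, Gbp3, Gbp6 and Gbp9, and without number 3 Gbp2, Gbp3 and Gbp9. Without the BMDC libraries that had Gbp2b, Gbp8 (2.63 ± 0.47, adjusted p = 0.00107) and Gbp11 (1.86 ± 0.40, adjusted p = 0.00416) were called higher in BMDCs, and the 6 others were still called lower. The libraries left out were picked after their low Gbp8 and Gbp11 had been seen, so these 2 calls add no support.

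The fold response of WT-labelled cells was smaller in BMDCs for 6 of 9 members by the interaction test, against 2.2% of genes. The difference of log2 fold changes, BMDC minus BMDM, was -4.95 ± 0.52 for Gbp2 (edgeR adjusted p = 7.69e-05), -4.41 ± 0.40 for Gbp3 (3.32e-05), -5.27 ± 0.68 for Gbp5 (0.000546) and -3.45 ± 0.60 for Gbp7 (0.00446). It was -3.86 ± 0.95 for Gbp6 (0.0387), and Gbp4 passed as well, with BMDM controls at 0 counts. Gbp8 had -2.02 ± 1.21 (adjusted p = 0.543), Gbp9 -1.40 ± 0.51 (0.187) and Gbp11 -4.23 ± 2.33 (0.482). With the library number as a block within genotype label, these 3 passed too, with adjusted p of 0.0126, 0.0353 and 0.0373. Gbp2, Gbp3, Gbp5 and Gbp7 were called in all 10 fits that left out 1 library. Gbp4 was called in 9, losing its call without BMDM control number 1 (adjusted p = 0.0551), and Gbp6 in 3 (up to 0.151). The interaction shares its control libraries with the comparison without agonist.

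**Figure D4:**
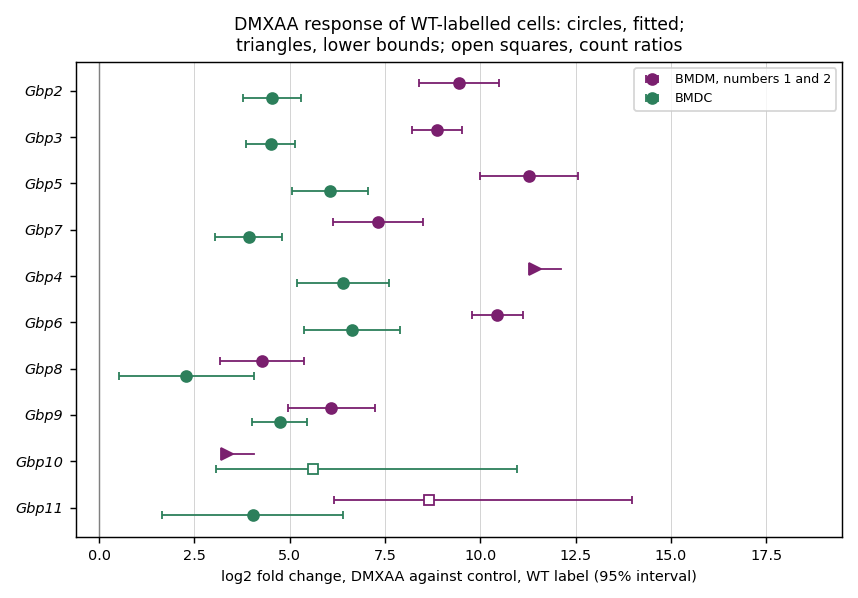
Log2 fold change of DMXAA against control in WT-labelled BMDMs numbered 1 and 2 (purple) and BMDCs (green) for the 10 members. Circles are edgeR estimates with 95% intervals, triangles are lower bounds where all controls had 0 counts, and open squares are ratios of counts with 95% counting intervals. The purple circles reach 11.28 for Gbp5, and the green circles 6.64 for Gbp6.

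Without a filter on low values, the median log2 fold change of all 10 members was 4.63 in WT-labelled BMDCs, 4.64 in CRE-labelled BMDCs, 8.56 in WT-labelled BMDMs and 6.28 in CRE-labelled BMDMs, with members that had 0 counts in controls set at their bound. The median of all genes was between -0.0391 and 0 in the same fits. Between genotype labels under DMXAA the members' median was -0.15 in BMDCs and -1.94 in BMDMs, where the median of all genes was 0 in both.

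Genes of the pathway were counted from lists. STING signals through Tbk1 and Irf3 to interferon genes, and interferon receptors act through Jak kinases and Irf9 on genes such as the GBPs. Of 19 tested genes on this upstream list, 13 rose and 2 fell in WT-labelled BMDCs, 12 rose and 1 fell in CRE-labelled BMDCs, 14 rose and 1 fell in WT-labelled BMDMs, and 8 rose and 0 fell in CRE-labelled BMDMs. Among all genes tested, 17.0, 14.0, 18.4 and 7.28% rose and 15.2, 11.4, 20.7 and 2.72% fell in these 4 responses, in the same order, which is the background for each list. Ifnb1, which encodes interferon beta, had 0 counts in all 10 controls of the libraries tested. Under DMXAA it had 1646 counts over the 3 WT-labelled and 1313 over the 3 CRE-labelled BMDC libraries, 229 over the 2 WT-labelled BMDM libraries and 1 over the 2 CRE-labelled ones. Ifngr1, a chain of the interferon gamma receptor, fell most on the list, by 1.22 ± 0.19 on the log2 scale in WT-labelled BMDCs (edgeR adjusted p = 0.000607) and by 0.91 ± 0.29 in WT-labelled BMDMs (0.0477). Between genotype labels under DMXAA, 9 of the 19 were lower in CRE-labelled BMDMs, where 9.99% of all genes were lower and 9.26% higher, and 0 differed in BMDCs.

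The prenylation list holds the subunits of the enzymes that attach and trim the lipid anchor. None of its 5 genes rose in any of the 4 DMXAA responses, and 1 fell with the CRE label in BMDCs and 1 in BMDMs. The targeting list holds immunity-related GTPases and autophagy genes that guide GBPs to vacuoles. Of its 8 genes, 3 rose and 1 fell in BMDCs of each label, 5 rose and 1 fell in WT-labelled BMDMs, and 3 rose and 0 fell in CRE-labelled BMDMs. Igtp, an immunity-related GTPase, had the largest rise of the list in WT-labelled BMDCs, 5.22 ± 0.32 (edgeR adjusted p = 8.36e-07), and in WT-labelled BMDMs, 6.53 ± 0.17. Atg7, an autophagy enzyme, fell by 1.01 ± 0.16 and 0.76 ± 0.12. In BMDMs under DMXAA 4 of the 8 genes were lower with the CRE label, Igtp most (-1.65 ± 0.14), and Atg7 was higher (0.82 ± 0.12).

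The inflammasome list holds caspases, sensors and products of pyroptosis that act downstream of GBPs. In BMDCs 6 of its 8 genes rose with each label. In BMDMs, where 7 were tested, 6 rose with the WT label and 5 with the CRE label, and none fell in any of these responses. Casp4, the sensor of cytosolic bacterial lipid, had the largest rise in WT-labelled cells, 3.6 ± 0.29 in BMDCs (edgeR adjusted p = 5.38e-06) and 4.36 ± 0.44 in BMDMs. Between genotype labels in BMDMs under DMXAA, 5 of 7 were lower with the CRE label, Nlrp3, an inflammasome sensor, most (-2.65 ± 0.23, adjusted p = 0.00139). In BMDCs none of the prenylation, targeting and inflammasome genes differed between labels by edgeR, and Nlrp3 did not pass in the response (0.45 ± 0.64, adjusted p = 0.656, WT label).

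The genes whose log2(FPKM + 1) ran closest to the mean of the members over the 20 libraries without BMDM number 3 were Usb1 (Pearson r = 0.990), Otud5 (0.988), Irf9 (0.988), Batf2 (0.987) and Tap1 (0.987), of 12730 genes compared. These correlations are descriptions, since the libraries of a group share treatment and culture. The members' own r with that mean, which includes them, was 0.992 for Gbp5 and 0.991 for Gbp7, 0.942 to 0.979 for Gbp2, Gbp3, Gbp4, Gbp6 and Gbp9, and 0.889, 0.822 and 0.760 for Gbp10, Gbp11 and Gbp8. Tap1, a peptide transporter of antigen presentation, had a mean of 6.91 FPKM in WT-labelled BMDM controls, 292.8 under DMXAA with the WT label and 114.5 with the CRE label. In BMDCs it had 19.6 and 16.5 without agonist and 170.8 and 160.2 with it. The order of these groups was the same as for the sum of the members.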

How the data were processed

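RNA was isolated with TRIzol, and polyA libraries were made with the NEBNext Ultra kit. Per the submitters' processing notes, CASAVA 1.8, fastp, HISAT2 2.0.5, featureCounts 1.5.0-p3 and DESeq2 1.20.0 were named with GRCm38/mm10. How reads that match several genes and strand were handled is not given in the sources used here. The authors deposited raw counts per gene and FPKM, which they scaled by gene length and by a library size 0.687 to 1.33 times the total count. Columns with the authors' own comparisons (group means, fold changes and p-values) were not used. There were 0 unmatched columns and 0 entries without a gene name.

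Counts were tested with edgeR 4.0.16 (quasi-likelihood, TMM, R 4.3.3, two-sided) over genes that reached 1 FPKM in 3 or more of the libraries fitted, or 2 or more for BMDMs. The fits used 12 BMDC libraries, 8 BMDM libraries, and these 20 together for the cell types. Genes with a Benjamini-Hochberg adjusted p below 0.05 were called. Bounds used a floor of 3 counts over a group. SE values came from the same fits. The text names all 10 members, the 5 most similar genes, and examples from the pathway lists. These examples were mostly genes with the largest or smallest fold change of a list, and not every such gene is named. The members and all lists were chosen with earlier results of these data known.

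To check for pairing, deviations from the group mean were correlated between libraries with the same number. In BMDCs r was 0.417 to 0.692 between control and DMXAA within a genotype label and -0.514 to 0.0325 across labels, so numbers were read as pairs within a label. This pairing rests on the values, not on the labels. The main tests did not use it, and the block within a genotype label was run as an alternative. Other numbers were not compared in this way. By correlation of log2 CPM, each BMDC library was most similar to a library of the other label with another number. In both treatments WT-labelled number 2 went with CRE-labelled number 3 and WT-labelled number 3 with CRE-labelled number 1 (r = 0.998). The genotype tests did not use this likeness, and its part in them was not tested. In BMDMs 1 and 2 r was 0.0392 to 0.611 within a label. No replicates agreed within sampling noise. By a chi-square per gene against that noise, the CRE-labelled BMDM pairs numbered 1 and 2 came closest, at 3.23 (control) and 4.95 (DMXAA). The WT-labelled BMDM pairs had 92.3 and 69.2. The fits were also run on simulated counts with the same spread in every library. That check does not cover the unequal spread found here.

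Alternatives were median-of-ratios scaling, other filters, DESeq2 1.42.0, limma 3.58.1 on log2(FPKM + 1) or log2(FPKM + 0.1), voom weights, replicate blocks, the study's thresholds, only the groups compared, BMDM number 3 included, and 1 library left out. Leaving out the 4 BMDC libraries with Gbp2b was added after the values had been seen.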

Additional observations from a re-analysis of the deposited data

Results flagged for a closer look

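The DMXAA response differed between genotype labels in BMDMs by the interaction test of edgeR for Gbp3 (-1.81, log2, CRE minus WT) and Gbp6 (-3.63). The Gbp6 value rests on BMDM controls with 2 to 6 counts each. The DMXAA response was also compared between cell types. It differed between cell types with the WT label, BMDC minus BMDM, for Gbp2 (-4.95), Gbp3 (-4.41), Gbp5 (-5.27), Gbp7 (-3.45) and Gbp6 (-3.86). For Gbp4 the fitted cell type value was -8.34, which depends on BMDM controls at 0 counts and is no bound.

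The BMDM libraries numbered 3 entered none of the tests, and their members were higher with DMXAA than without it. The summed FPKM was 85.5 against 8.96 with the WT label and 50.4 against 2.19 with the CRE label. As ratios of FPKM with no test, Gbp3 had 20.6 and 56.0, Gbp7 9.80 and 30.4, Gbp4 5.80 and 21.6, and Gbp9 4.77 and 15.7 in the WT-labelled and CRE-labelled pair. Gbp2 had 6.49 and 10.3 there, and its share of the sum under DMXAA was 29.7% and 24.4%. Gbp4 had 59 counts in the WT-labelled control numbered 3, against 0 in the 4 BMDM controls numbered 1 and 2.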

How the results depend on the processing

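Of 2057 alternative fold changes of members, 1854 stayed on their side of the threshold, 145 lost their call, 58 gained one, and none that was called reversed, while 88 changed sign without being called. With the BMDM libraries numbered 3, members called fell to 0 in the WT-labelled BMDM response (from 9), 0 in the CRE-labelled one (from 9), 0 between labels under DMXAA (from 7), 0 in the genotype interaction (from 2), 1 between cell types without agonist (from 8), 0 under DMXAA (from 6) and 0 in the cell type interaction (from 6). The cause was not tested. The BMDM genotype interaction (2 members) rose to 6 without a filter, to 6 with DESeq2, 6 with limma on log2(FPKM + 1), 6 under the study's thresholds and 4 on log2(FPKM + 0.1). Between labels without agonist, 1 member was called under the study's thresholds (0 in the test reported). Between cell types without agonist, 5 were called with limma on log2(FPKM + 1), 4 with voom weights and 5 of 5 tested with only the groups compared. With the replicate block across labels 8 members were called in each BMDC response, and with the replicate block within genotype 6 were called in the BMDM interaction. Beyond these and the values given in the report, the block within genotype changed no call of a member, and the block across labels gave 8 between labels in BMDMs under DMXAA, 6 between cell types without agonist, 4 under DMXAA and 5 in the cell type interaction. Leaving out 1 library gave 2 to 8 members between labels in BMDMs under DMXAA, 0 to 5 in the BMDM interaction and 1 to 6 between cell types under DMXAA. Over other settings the genes called in the CRE-labelled BMDM response ranged from 0 to 6332 (1157 reported), and in the BMDM interaction from 0 to 1702 (424 reported). Gbp4, Gbp10 and Gbp11 had 1 count or none over the BMDM controls numbered 1 and 2, so depth limits their folds to bounds or wide intervals. Gbp6 had 2 to 6 counts in each of these controls, so its BMDM folds also rest on few counts.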
